A study of Mus musculus with 12 samples.

Results

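The annexins are a family of calcium-dependent membrane-binding proteins. Their genes were followed by symbol through RNA-seq of the tibialis anterior, a fast muscle of the lower hindlimb, in 12 mice. The 9 genes Anxa1, Anxa2, Anxa3, Anxa4, Anxa5, Anxa6, Anxa7, Anxa8 and Anxa11 were taken from the 23923 genes analysed, and all 9 had a value in each of the 12 libraries. All 9 also passed the filter on low values, at least 0.1 FPKM in at least 6 libraries, which left 12695 genes for testing. FPKM is the number of sequenced fragments divided by transcript length and by the total of mapped fragments, so levels of different genes are compared per length here.

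The study asked what loss of Smyd1, a methyltransferase of striated muscle that takes part in myosin assembly, does to myofibers. Each library came from 1 mouse, aged 6 weeks, on a C57BL6/J;129S1/SvImJ background. The 6 controls were Myf6 cre/+; Smyd1 flox/+ and the 6 conditional knockouts (CKOs) were Myf6 cre/+; Smyd1 flox/-, and all carried a Rosa26 YFP reporter allele. Both groups therefore had 1 floxed Smyd1 allele and 1 Myf6 allele bearing Cre. By the study's reporter, recombination by Myf6 cre was barely detectable late in gestation and strong on the day of birth, after myofibers had differentiated. Other cells of the muscle were not targeted, while CKOs also lacked 1 Smyd1 allele in every cell. After its comparison of the sexes, the study used male tissue only. The groups rest on the labels, because the Smyd1 FPKM of the whole gene, 37.4 ± 5.64 (SD, n = 6) in controls and 34.1 ± 4.36 (n = 6) in mice labelled CKO, did not separate them (limma adjusted P = 0.545). Such a gene-level value does not isolate the deleted part of the gene and checks nothing about recombination. The study itself found SMYD1 protein to be undetectable by western blot in CKO tibialis anterior. It also reported recombination by Myf6 cre in every muscle it examined.

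Annexins bind membranes rich in acidic phospholipids when calcium rises. In muscle, several of them gather at tears in the sarcolemma, the membrane of the myofiber, where together with dysferlin they take part in sealing the wound. In the study, Evans blue dye uptake, its assay of sarcolemmal integrity, marked no fiber in control or CKO tibialis anterior, with or without treadmill exercise. Annexins are also made by the fibroblasts, endothelial cells and leukocytes that a whole-muscle sample holds. In bulk RNA, a change in the number of such cells and a change in RNA per cell cannot be told apart.

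The control 1 library stood apart from the other controls and has to be kept in view. The summed FPKM of 6 fibroblast markers was 827 in control 1, 220 to 277 in controls 2 to 6 and 292 to 490 in CKOs. The 6 macrophage markers summed to 13.3 in control 1 against 3.71 to 5.88 in the other controls and 5.29 to 8.31 in CKOs. The 5 tenocyte markers gave 55.0 in control 1, 16.5 to 28.9 in the other controls and 14.3 to 32.8 in CKOs, and the 5 Schwann cell markers gave 3.62, 6.75 to 8.85 and 6.43 to 12.5. The fibroblast marker sum was thus higher in every CKO than in controls 2 to 6, and highest in control 1. Of its genes, Pdgfra, Col3a1, Dcn and Lum also separated CKOs from controls 2 to 6. Col1a1 (40.0 to 77.2 in CKOs, up to 60.1 in controls 2 to 6) and Col1a2 (49.3 to 91.3, up to 53.0) overlapped. The adipocyte sum was 1.22 in control 1, 0.498 to 0.643 in the other controls and 1.12 to 2.58 in CKOs. Among its genes, Adipoq, Plin1, Cidec and Lep overlapped between controls 2 to 6 and CKOs, and Retn did not. The satellite cell sum was 1.31 to 2.07 in all controls and 1.93 to 3.09 in CKOs. The sum of 5 epithelial markers was 0.896 to 1.71 in controls and 1.77 to 4.44 in CKOs. It came almost entirely from Trp63 (0.896 to 1.67 and 1.66 to 4.28), the only 1 of the 5 that passed the filter. Krt5, Krt14, Krt15 and Epcam were at 0 in 11, 9, 9 and 10 of the 12 libraries. Endothelial, smooth muscle and erythrocyte sums overlapped between controls 2 to 6 and CKOs, at 26.9 to 40.8 and 27.0 to 45.2, 47.6 to 65.9 and 51.4 to 71.0, and 12.8 to 34.0 and 18.6 to 39.2. In control 1 they were 30.4, 83.1 and 49.3, the latter pair being the highest of the 12 libraries. The part of these cells in the annexin values was not tested. The study itself reported altered expression of very few genes tied to fibrosis or inflammation. All 9 myofiber markers were detected. Their sum was also highest in control 1, at 35469, against 21788 to 29102 in the other controls and 25517 to 30032 in CKOs. The neutrophil marker sum was 0 in control 1, 0 to 0.696 in the other controls and 0 to 1.04 in CKOs. Mpo and Elane were at 0 in all 12 libraries, and the rest of that sum came from S100a8 and S100a9.

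In the FPKM as deposited, Anxa4 and Anxa6 were called higher in CKOs, and no annexin was called lower. With limma on log2(FPKM + 0.1) and Benjamini-Hochberg adjustment over all genes, 2 of the 9 annexins were higher at an adjusted P below 0.05, against 2.02% of all genes tested, and 0 were lower, against 0.268%. At an unadjusted P below 0.05, Anxa7 joined them, giving 3 of 9 higher against 18.1% of all genes, and 0 lower against 1.76%. The median log2 fold change of the 9 was 0.38, beside 0.18 over all genes, of which 77.9% lay above 0. When the libraries were scaled by median ratios, the median over all genes became 0.0079 and that of the annexins 0.20, and Anxa4 alone passed, 1 of 9 against 0.764%. Under that scaling the calls over all genes split into 97 higher and 90 lower, where the values as deposited gave 257 and 34. The study's own test of counts by DESeq, at P below 0.05, gave similar numbers of genes up and down.

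Without control 1, 5 annexins were higher at an adjusted P below 0.05. These were Anxa1, Anxa2, Anxa4, Anxa6 and Anxa7, against 8.40% of all genes. With median-ratio scaling and without control 1, Anxa4 and Anxa6 passed, 2 of 9 against 1.42%. No annexin separated the 2 groups completely over all 12 libraries, a pattern met by 2.23% of genes in the direction of CKOs, whereas Anxa4 and Anxa6 did so without control 1, a pattern met by 6.10%.

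**Figure D1:**
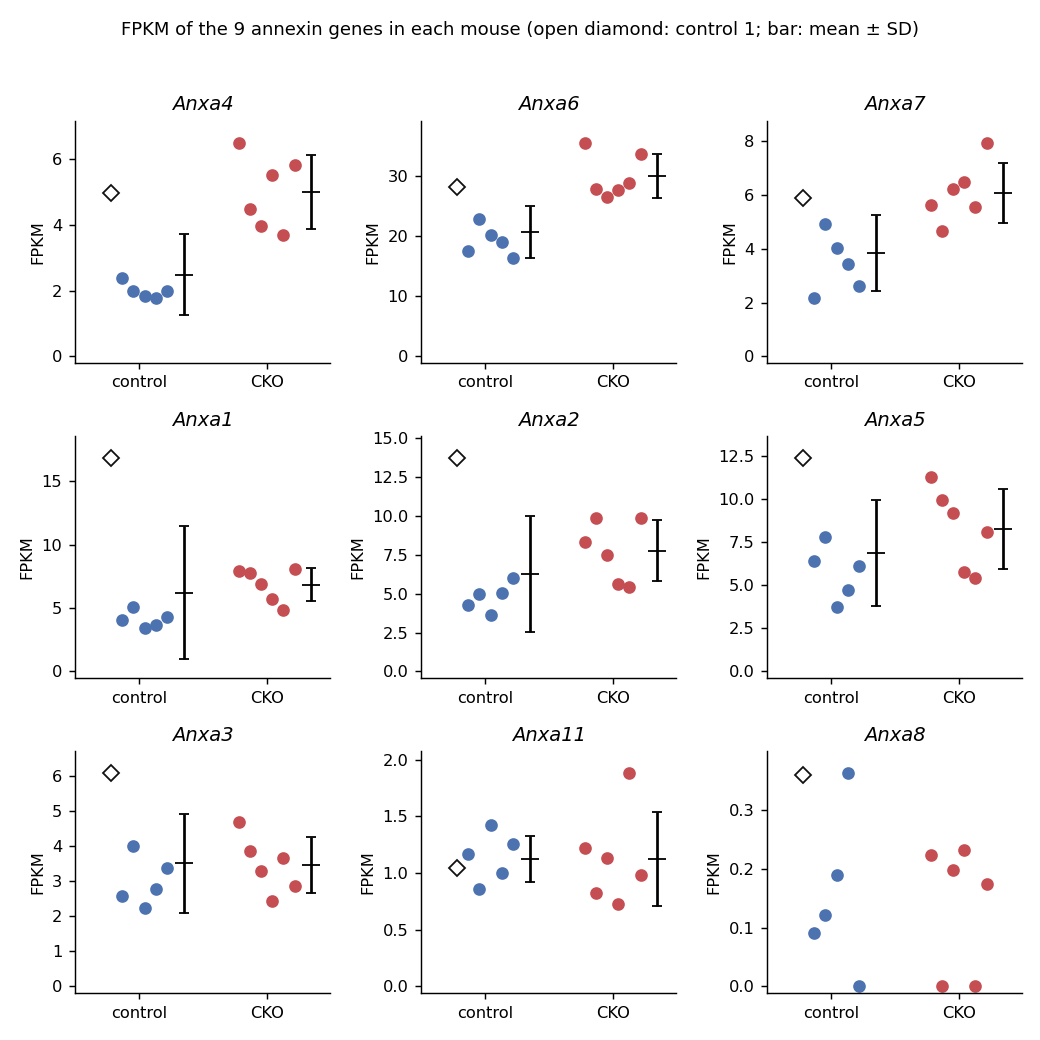
FPKM of each annexin gene (vertical axes, 1 scale per gene) in each mouse, with controls in blue, CKOs in red, control 1 as an open diamond and the bar showing mean ± SD (not drawn for Anxa8, which has libraries at 0). Control 1 was the highest control for 7 of the 9 genes, and the other 5 controls lay below all CKOs for Anxa4 and Anxa6.

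Anxa4, best known from the membranes of secretory epithelia, showed the largest difference of the 9. Its FPKM was 1.78 at the lowest, 1.98 at the median and 4.99 at the highest in controls, and 3.71, 5.0 and 6.50 in CKOs. The highest control was control 1 and the next was 2.39, so controls 2 to 6 lay below every CKO, while control 1 lay above 3 of the 6. The means were 2.49 ± 1.24 (SD, n = 6) and 5.01 ± 1.11 (n = 6), a log2 fold change of 1.05 (SE 0.226, 95% confidence interval 0.57 to 1.53, limma adjusted P = 0.0262), or 2.07-fold on the log2(FPKM + 0.1) scale. Without control 1 the log2 fold change was 1.27 (adjusted P = 0.000657), and with median-ratio scaling it was 0.87 (adjusted P = 0.0425). An exact permutation test of this gene alone, two-sided over all assignments of the 12 libraries to 2 groups of 6, gave P = 0.00866. The call was narrow: it was lost, at limma adjusted P from 0.0507 to 0.0747, when any single one of controls 2 to 6 or of CKOs 1, 4 and 6 was left out.

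Anxa6, a large annexin with a duplicated core whose truncated form worsens muscular dystrophy in mice, was the most abundant of the 9 in both groups. Controls held 16.4 FPKM at the lowest, 19.5 at the median and 28.2 at the highest, and CKOs held 26.4, 28.3 and 35.4. Again the highest control was control 1, and the next control, at 22.9, was below every CKO. The mean went from 20.7 ± 4.30 (n = 6) to 29.9 ± 3.65 (n = 6), a log2 fold change of 0.55 (SE 0.130, interval 0.27 to 0.82, limma adjusted P = 0.0408). This was a 1.46-fold difference on the log2(FPKM + 0.1) scale. With scaling the log2 fold change was 0.36 and the adjusted P was 0.0603, above the threshold, while without control 1 the values were 0.64 and 0.00436. The adjusted P remained below 0.05 when control 1, CKO 2 or CKO 5 was left out, and ran from 0.0513 to 0.111 when any one of the other 9 libraries was. The exact permutation P was 0.00866.

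Anxa7, or synexin, first described for its ability to fuse chromaffin granules, had a difference that did not pass after adjustment. Its FPKM ran from 2.17 through a median of 3.73 to 5.91 in controls and from 4.65 through 5.93 to 7.95 in CKOs. Control 1, at 5.91, and control 3, at 4.94, lay within the CKO range. The log2 fold change was 0.71 (SE 0.211, interval 0.26 to 1.16, limma P = 0.00427, adjusted P = 0.0892), with an exact permutation P of 0.0173 for this gene alone. Leaving out control 1 gave 0.85 and an adjusted P of 0.0163, and leaving out any other single library gave an adjusted P from 0.0745 to 0.181.

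**Figure D2:**
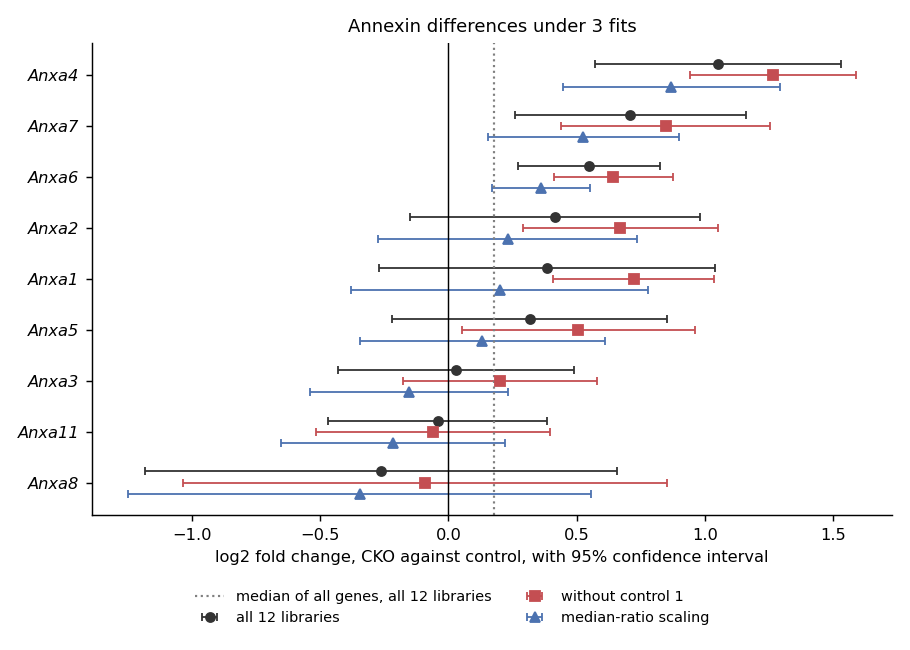
Log2 fold change of each annexin, CKO against control (horizontal axis, bars are 95% confidence intervals), from the fit to all 12 libraries, the fit without control 1 and the fit after median-ratio scaling, with the median of all genes dotted at 0.18. Anxa4 lies at 1.05, 1.27 and 0.87 in the 3 fits, and the intervals of Anxa1, Anxa2 and Anxa5 lie above 0 in the fit without control 1 and reach below 0 in the other fits.

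For Anxa1, Anxa2 and Anxa5, control 1 lay above every CKO. Anxa1 is a ligand of formyl peptide receptors with anti-inflammatory action, Anxa2 pairs with S100a10 at the membrane and binds plasminogen activator, and Anxa5 lays a lattice on exposed phosphatidylserine. None of these 3 differed between groups past the adjusted threshold over all 12 libraries.

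Anxa1 was 3.42 FPKM at the lowest, 4.14 at the median and 16.8 at the highest in controls, and 4.85, 7.31 and 8.04 in CKOs. The control 1 value was 4.13 times the mean of the other controls, and of controls 2 to 6 only control 3, at 5.05, reached the lowest CKO. The log2 fold change was 0.38 (SE 0.308, interval -0.27 to 1.04, limma adjusted P = 0.490) with control 1 and 0.72 (interval 0.41 to 1.04, adjusted P = 0.0106) without it. With scaling and without control 1 it was 0.49 (adjusted P = 0.0703). The Anxa1 result thus turns on 1 library.

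Anxa2 had 3.60, 5.0 and 13.7 FPKM as the lowest, median and highest control, and 5.41, 7.92 and 9.87 in CKOs. Control 1 again lay above every CKO, and control 6, at 6.03, lay above 2 of them. The log2 fold change was 0.42 (SE 0.266, interval -0.15 to 0.98, limma adjusted P = 0.387). It was 0.67 (interval 0.29 to 1.05, adjusted P = 0.0328) without control 1, and 0.44 (adjusted P = 0.208) when scaling was added.

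For Anxa5, controls ran from 3.76 through 6.27 to 12.4 FPKM and CKOs from 5.40 through 8.63 to 11.3. Control 1 exceeded all CKOs, and CKO 4 and CKO 5, at 5.76 and 5.40, lay inside the range of the other controls. The log2 fold change was 0.32 (interval -0.22 to 0.85, limma adjusted P = 0.485), and without control 1 it was 0.51 (interval 0.05 to 0.96, adjusted P = 0.136).

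**Figure D3:**
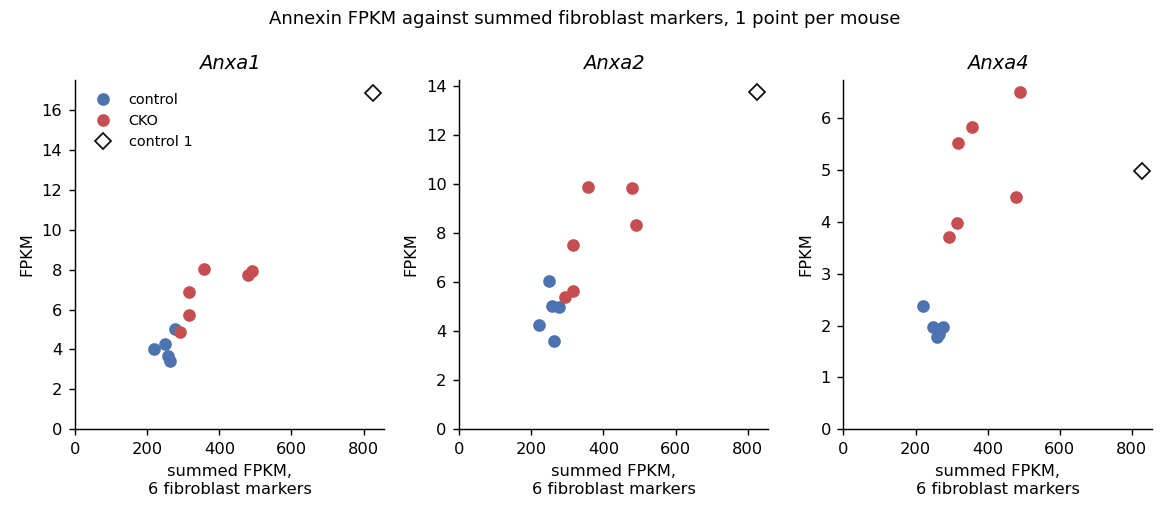
FPKM of Anxa1, Anxa2 and Anxa4 (vertical axes) against the summed FPKM of 6 fibroblast markers (horizontal axes), 1 point per mouse, with controls blue, CKOs red and control 1 an open diamond. Control 1 lies farthest to the right, at 827, and is the highest point for Anxa1 and Anxa2 and not for Anxa4, where 3 CKOs lie above it.

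These 3 genes also varied together among mice of one group. After subtracting group means from log2(FPKM + 0.1), the correlation over 12 libraries was computed for all 36 pairs of annexins, and 4 passed a permutation test by both Pearson r and Spearman rho with Benjamini-Hochberg adjustment. Anxa1 and Anxa2 had Pearson r = 0.935 (adjusted permutation P = 0.0157) and Spearman rho = 0.853 (adjusted permutation P = 0.0124). Anxa1 and Anxa5 had r = 0.857 (adjusted permutation P = 0.00612) and rho = 0.860 (adjusted permutation P = 0.00900). Anxa2 and Anxa5 had r = 0.840 and rho = 0.811 (adjusted permutation P = 0.0249 and 0.0335), and Anxa3 and Anxa5 had r = 0.835 and rho = 0.790 (adjusted permutation P = 0.0249 and 0.0335). Without the 2 libraries farthest from the median, control 1 and either control 4 or CKO 6, r was 0.803, 0.901, 0.780 and 0.628 in that order, and without control 1 alone it was 0.828, 0.902, 0.715 and 0.707. Each value of a pair comes from the same library, with the same depth and cell makeup, so these correlations are given as a description of the samples. The pair of Anxa1 and Anxa4 passed by rho alone (rho = 0.790, adjusted permutation P = 0.0335; r = 0.877, adjusted permutation P = 0.0689), and its r was 0.487 without control 1 and control 4. Without control 1 alone, the r of Anxa4 was 0.505 with Anxa1, 0.399 with Anxa5, 0.270 with Anxa2 and -0.0048 with Anxa3.

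Promoter sequence was read for the annexin with the largest difference and for the 3 that varied together, to show whether they share letters upstream. The windows are the 250 bases before the outermost RefSeq start on GRCm38.p6, chr6:86793585-86793834 on the minus strand for Anxa4, chr19:20390672-20390921 on the minus strand for Anxa1, chr9:69453433-69453682 on the plus strand for Anxa2 and chr3:36475888-36476137 on the minus strand for Anxa5. Each is printed from 5′ to 3′ along the gene, with matches to the searched motifs in capitals.
Anxa4: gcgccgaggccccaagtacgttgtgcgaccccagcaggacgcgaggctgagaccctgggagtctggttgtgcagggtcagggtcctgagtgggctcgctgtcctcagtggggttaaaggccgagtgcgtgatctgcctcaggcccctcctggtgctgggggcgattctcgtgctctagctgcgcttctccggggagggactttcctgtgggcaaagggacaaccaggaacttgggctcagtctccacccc
Anxa1: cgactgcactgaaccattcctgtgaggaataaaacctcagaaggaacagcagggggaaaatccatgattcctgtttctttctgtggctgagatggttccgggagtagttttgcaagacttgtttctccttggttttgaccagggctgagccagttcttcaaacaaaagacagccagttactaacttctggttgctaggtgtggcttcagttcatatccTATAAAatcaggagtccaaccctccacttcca
Anxa2: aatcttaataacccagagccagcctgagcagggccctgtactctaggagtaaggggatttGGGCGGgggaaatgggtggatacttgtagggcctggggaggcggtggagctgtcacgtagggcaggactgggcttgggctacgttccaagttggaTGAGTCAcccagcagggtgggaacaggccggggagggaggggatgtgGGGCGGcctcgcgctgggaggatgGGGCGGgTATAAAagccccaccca
Anxa5: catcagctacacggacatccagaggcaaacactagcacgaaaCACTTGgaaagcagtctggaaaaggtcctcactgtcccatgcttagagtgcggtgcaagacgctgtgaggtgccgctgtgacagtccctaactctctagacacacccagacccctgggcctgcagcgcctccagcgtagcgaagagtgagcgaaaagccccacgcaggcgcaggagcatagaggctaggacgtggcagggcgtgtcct

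The motifs searched on both strands were the TATA box (TATAAA), the GC box (GGGCGG), the E-box (CANNTG) and the AP-1 site (TGACTCA), which occur in 12.4%, 32.7%, 66.2% and 4.46% of all 32851 windows of that length. The Anxa1 window held a TATA box 32 bases before the start and the Anxa2 window held one 17 bases before it, overlapping no other match. Anxa2 also held 3 GC boxes and, as TGAGTCA on the opposite strand, an AP-1 match 95 bases before the start. Anxa5 held only an E-box, 208 bases before the start, and the outermost Anxa4 window held none of these letters. A second, inner Anxa4 start, whose window chr6:86775115-86775364 is not printed, had an E-box 161 bases before it and 42.0% GC. Anxa1 and Anxa2 thus shared the TATA box, and none of the 4 motifs was found in all 3 of Anxa1, Anxa2 and Anxa5. The GC content of the printed windows was 64.8% for Anxa4, 46.0% for Anxa1, 62.4% for Anxa2 and 58.8% for Anxa5. The motif matches are matches of letters and not sites of binding.

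Anxa3, Anxa8 and Anxa11 showed no difference between groups that passed a threshold. Anxa3, best known from neutrophils and endothelial cells, ran from 2.24 to 6.08 FPKM in controls and from 2.43 to 4.68 in CKOs, with a log2 fold change of 0.03 (interval -0.43 to 0.49, limma adjusted P = 0.956). Its direction flipped to -0.15 under median-ratio scaling. Anxa11, which tethers RNA granules to lysosomes and binds the calcium sensor Pdcd6, ran from 0.857 to 1.42 in controls and from 0.724 to 1.88 in CKOs (log2 fold change -0.04, interval -0.47 to 0.38, adjusted P = 0.926). Anxa11 was 1 of the 2 genes whose highest control was not control 1.

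Anxa8, an annexin of epithelia, was close to the lowest values that the files hold. Controls 1 to 6 were listed at 0.360, 0.0915, 0.122, 0.189, 0.363 and 0 FPKM, and CKOs 1 to 6 at 0.223, 0, 0.198, 0.232, 0 and 0.174. The groups overlapped fully (log2 fold change -0.26, interval -1.18 to 0.66, limma adjusted P = 0.755). That interval takes in a 2-fold decrease. Of the other annexin genes in the files, Anxa10 was listed at 0 in all 12 libraries and Anxa9 between 0 and 0.138. Anxa13 was at 0 in all 6 controls and above 0 in 4 of 6 CKOs, with at most 0.207 FPKM. None of these 3 passed the filter.

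The order of levels per length was Anxa6, Anxa5, Anxa2, Anxa1, Anxa7, Anxa3, Anxa4, Anxa11 and Anxa8 in controls, by mean FPKM. It was the same in CKOs but for Anxa4, which stood above Anxa3. Within controls, Anxa5, Anxa2, Anxa1, Anxa7 and Anxa3 followed each other with differences inside their spread over mice (exact sign-flip test of neighbours, adjusted P from 0.250 to 0.5625). The other neighbours kept their order in 6 of 6 controls, with P = 0.03125, the smallest that 6 mice allow in that exact test, and 0.0625 after adjustment. In CKOs, Anxa5, Anxa2, Anxa1, Anxa7 and Anxa4 likewise followed each other with differences that did not pass the exact test (adjusted P from 0.1 to 0.40625), although Anxa2 exceeded Anxa1 in 5 of 6 mice by a mean log2 difference larger than its SD, 0.16 against 0.14.

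The exchange of Anxa3 and Anxa4 held in every mouse. The FPKM ratio of Anxa4 to Anxa3 was 0.495 to 0.925 in controls, control 1 included at 0.820, and 1.02 to 2.27 in CKOs. Of the 29 ratios between members that were defined in all 12 libraries, this was the only 1 whose 2 groups did not overlap. How often ratios between other genes separate the groups was not computed, so no background share stands beside this count. A ratio within a library does not depend on how libraries are scaled. Anxa4 made up 3.76% to 5.87% of the summed FPKM of the 9 genes in controls and 6.14% to 9.18% in CKOs, with no overlap. This percentage draws on the same Anxa4 values as the ratio, and how often such percentages of other genes separate the groups was not computed either. The summed FPKM was 89.5 in control 1, 40.6 to 52.6 in the other controls and 59.2 to 81.2 in CKOs. Such a ratio shows unequal change and does not say which gene moved.

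**Figure D4:**
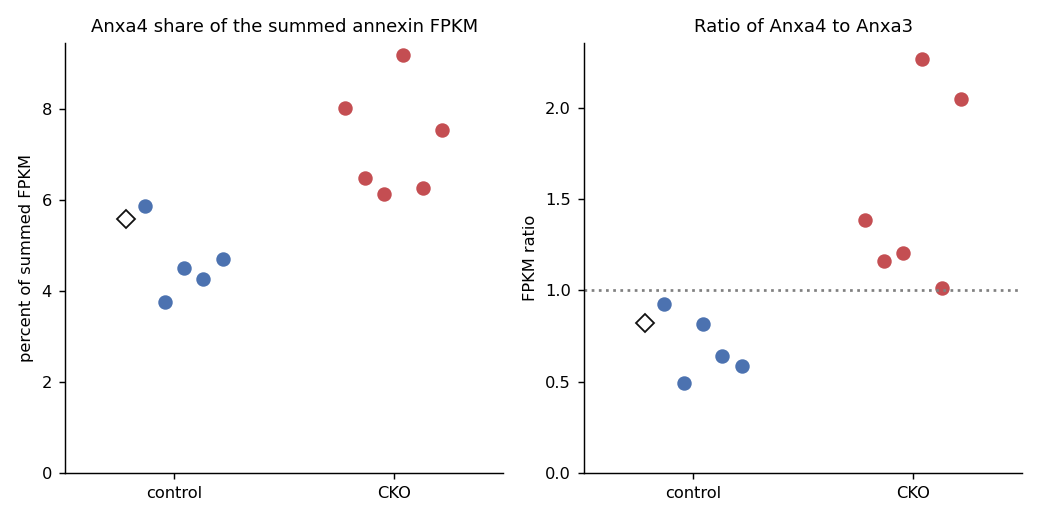
Left, Anxa4 as a percent of the summed FPKM of the 9 annexins in each mouse, and right, the ratio of Anxa4 to Anxa3 FPKM, with both vertical axes from 0, controls blue, CKOs red, control 1 an open diamond and a dotted line at a ratio of 1. Every control lies below every CKO in both plots, with ratios up to 0.925 in controls and from 1.02 in CKOs. Both plots draw on the same Anxa4 values.

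Genes that work with annexins were taken from a list of 29, of which 28 had a row and 23 passed the filter. Over all 12 libraries, 4 of the 23 were higher at an adjusted P below 0.05 and 0 were lower, against 2.02% and 0.268% of all genes. Their median log2 fold change was 0.30, beside 0.18 over all genes. With median-ratio scaling 0 passed the adjusted threshold, and 5 were higher and 1 lower at an unadjusted P below 0.05 in limma, against 6.62% and 7.44% of all genes. Without control 1, 9 of the 23 were higher after adjustment, against 8.40%.

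S100a4, a calcium-binding protein of motile and stromal cells, had the largest of these differences. It was 1.2 to 2.97 FPKM in controls 2 to 6, 9.08 in control 1 and 3.20 to 23.9 in CKOs, so that only control 1 reached the CKO range. The log2 fold change was 1.99 (SE 0.465, limma adjusted P = 0.0386). Dysf, or dysferlin, the membrane repair protein that meets annexins at wounds, went from 4.79 to 7.62 FPKM in controls to 7.64 to 9.13 in CKOs. Every CKO therefore lay above every control, control 1 included, although CKO 5 and control 4 were nearly level. Its log2 fold change was 0.45 (SE 0.110, limma adjusted P = 0.0477), and with scaling it was 0.26 (adjusted P = 0.391).

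Capn1 and Capns1, the large and small subunits of the calcium-activated protease calpain 1, rose together. Capn1 was 5.34 to 5.99 FPKM in controls and 6.76 to 10.1 in CKOs, with no overlap and control 1 inside the narrow control range (log2 fold change 0.56, SE 0.111, limma adjusted P = 0.0177). Capns1 was 15.6 to 25.6 in controls, with control 1 the highest, and 23.5 to 28.4 in CKOs (log2 fold change 0.47, adjusted P = 0.0460). With scaling the adjusted P of Capn1 was 0.104 and that of Capns1 was 0.122. Ahnak, a giant scaffold bound by Anxa2 and S100a10, came next by P, with a log2 fold change of 0.42 (adjusted P = 0.0649).

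S100a10, the obligate partner of Anxa2 in its tetramer, was 10.6 to 38.0 FPKM in controls, with control 1 the highest, and 10.9 to 25.0 in CKOs (log2 fold change 0.17, limma adjusted P = 0.758). Its values moved with those of Anxa2 among mice of one group, with r = 0.833 (permutation P = 0.0141, adjusted over 6 relations 0.0844) and rho = 0.643 (permutation P = 0.0315, adjusted 0.189). Without control 1 and CKO 6, the libraries farthest from the median, r was 0.513, and without control 1 alone it was 0.528, so the size of this relation rested mainly on control 1. In the other 5 relations tested, of Anxa1 with S100a11, Anxa11 with S100a6 and Pdcd6, and Anxa7 with Pdcd6 and Sri, the adjusted permutation P for r was 0.492 or higher. For Anxa1 and S100a11, r was -0.0325 over all 12 libraries and 0.671 without control 1, and the latter was not tested. The formyl peptide receptors Fpr1 and Fpr3 were listed at 0 in all 12 libraries, and Fpr2 at up to 0.283 FPKM.

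**Figure D5:**
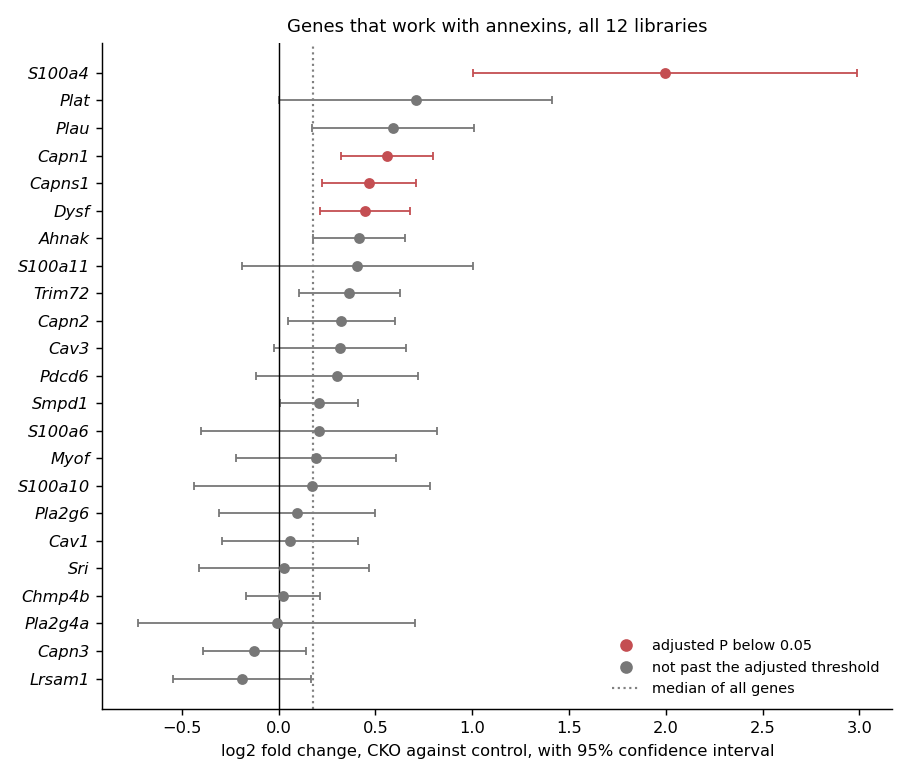
Log2 fold change, CKO against control over all 12 libraries, of the 23 tested genes that work with annexins (horizontal axis, bars are 95% confidence intervals), ordered by size, with those past the adjusted threshold in red and the median of all genes dotted. S100a4 is at 1.99, and Capn1, Capns1 and Dysf lie between 0.45 and 0.56.

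Across 7961 genes with a mean of at least 1 FPKM, those most like each annexin were found by Pearson r of log2(FPKM + 0.1) after subtracting group means, over 12 libraries and as a description only. Anxa1 was most like Tceal8 (r = 0.975) and Maged1 (0.963), and Anxa2 most like the collagen gene Col6a3 (0.956) and Atp9b (0.951). Anxa5 was most like Fbn1, which encodes the microfibril protein fibrillin 1 (0.958), and the collagen gene Col5a3 (0.951).

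Anxa4 was most like Rad50 (r = 0.967) and 3110002H16Rik (0.922), Anxa6 like Tm9sf3 (0.970) and Ube2g2 (0.966), and Anxa7 like 2610203C20Rik (0.974) and Nifk (0.956). Anxa3 was nearest to Lman2 (0.959) and Magt1 (0.957), Anxa8 to Zdhhc4 (0.922) and Pdap1 (0.907), and Anxa11 to Mib2 (0.871) and Ap3m1 (0.870). Without control 1 these r ran from 0.848, for Atp9b with Anxa2, to 0.962, for 2610203C20Rik with Anxa7. Then r was 0.863 for Tceal8 with Anxa1 and 0.865 for Col6a3 with Anxa2. It was 0.913 for Rad50 with Anxa4 and 0.942 for Fbn1 with Anxa5. Anxa8 was at 0 in 3 of the 12 libraries, so its matches rest on values near 0.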

How the data were processed

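RNA of the tibialis anterior was sequenced in 12 libraries, each from a single mouse. After removing ribosomal RNA (ScriptSeq Complete Gold) and adapters, the authors mapped reads by tophat on bowtie2, kept those with a unique position, and made the deposited FPKM by cufflinks. The submitters' processing notes name TopHat2 2.0.10, Cufflinks 2.1.1 and the build mm9. The gene annotation is not given in the sources used here. Keeping only unique reads makes values of near-identical genes uncertain.

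Each file held 23950 rows, of which 27 had a date as symbol and were left out. The authors tested counts with DESeq. Since the files hold FPKM, limma 3.58.1 (R 4.3.3) with an intensity trend was used on log2(FPKM + 0.1), with equal weights and no block, on the 12695 genes that reached 0.1 FPKM in 6 or more libraries, and adjusted by Benjamini-Hochberg over all of them. A pseudocount of 0.1 understates changes of low genes. The number of reads is unknown, so no counting intervals are given. Relative depth, read from the steps between low FPKM values, ranged over 1.80-fold, with medians of 1.19 in controls and 1.24 in CKOs. The limma P-values set the difference between groups against the spread between mice.

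The annexins, the list of genes that work with them and the marker lists were chosen with earlier results of these data known. The text names all 9 annexins, Smyd1, other Anxa symbols, list genes past the adjusted threshold or among the 5 with the smallest P, the 2 most alike genes of each annexin, and partners in the 6 tested relations and the formyl peptide receptors, whose mention was decided after their values were seen. Single marker genes are also named where a marker sum is broken down by gene, and these were chosen after their values were seen. Relations used permutation tests with 100000 resamples. Promoter windows came from RefSeq (GRCm38.p6), where 7 of the 9 annexins had an entry. No sequence was read for Anxa3 and Anxa6. Alternatives were another pseudocount, filters, scaling, quantile normalization, a replicate block, no trend, library weights and each library left out. The code was tested on simulated data.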

Additional observations from a re-analysis of the deposited data

Results flagged for a closer look

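In 3 of 18 groups of 6 libraries tested for a single far value, 1 library lay beyond the limit of Dixon's test. Chance alone does so in about 1 of 20 independent groups. These 18 groups share the same 12 libraries and are not independent, so the shares cannot be compared. In all 3 groups beyond the limit the library was control 1. It held 16.8 FPKM of Anxa1, where the next control held 5.05. It held 13.7 FPKM of Anxa2, where the next control held 6.03, and 4.99 FPKM of Anxa4, where the next control held 2.39. The same library had 3.26 times the mean fibroblast marker sum and 2.77 times the mean macrophage marker sum of the other controls, and 0.489 times their mean Schwann cell marker sum. The part of these cell types in the annexin values was not tested.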

How the results depend on the processing

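Anxa4 passed the adjusted threshold in limma in 9 of 9 other settings, among them the replicate block and scaling without control 1, with adjusted P up to 0.0496, and in 4 of 12 fits with 1 library left out. The number of annexins higher at an adjusted P below 0.05 was 2, beside 257 of all 12695 genes. It became 1 without a filter, with median-ratio scaling or without the trend (170, 97 and 195 of all genes, the first with more genes tested). With library weights it was 4 (1400 of all genes), and with 1 library left out it ran from 0 to 5 (84 to 1067). At an unadjusted P the number of annexins was 3, beside 2300 of all genes. It became 4 with the replicate block (2442), 6 with weights (3704) and 5 with scaling without control 1 (1100). With 1 library left out it ran from 3 to 6 (1738 to 3428). Log2 fold changes with 1 library left out were 0.27 to 0.72 for Anxa1, 0.29 to 0.67 for Anxa2, -0.080 to 0.20 for Anxa3, 0.97 to 1.27 for Anxa4, 0.17 to 0.51 for Anxa5, 0.49 to 0.64 for Anxa6, 0.57 to 0.85 for Anxa7, -0.53 to -0.05 for Anxa8 and -0.19 to 0.060 for Anxa11. Anxa6 missed the threshold at 0.55 without a filter (limma adjusted P = 0.0591), 0.36 with scaling and 0.55 without the trend. Anxa1 passed at 0.69 and Anxa7 at 0.82 with weights. Anxa3 turned to -0.15 with scaling, -0.15 with quantile normalization and -0.027 with scaling without control 1. Over all genes, higher calls went from 257 to 170 without a filter, 97 with scaling, 101 with quantile normalization and 1400 with weights, and ran from 84 to 1067 with 1 library left out. Lower calls went from 34 to 90, 68, 115 with weights and 182 with scaling without control 1, and ran from 18 to 69. At an unadjusted P, higher calls went from 2300 to 841, 810, 3704 and 1100 under scaling, quantile normalization, weights and scaling without control 1 (1738 to 3428 with 1 library left out), and lower calls from 224 to 944, 837 and 1146 (196 to 320). Of the partner genes, 0 passed with scaling (97 higher and 90 lower over all genes), and 9 were higher without control 1 (1067). At an unadjusted P, 5 were higher and 1 lower with scaling (841 and 944 over all genes), and 15 were higher without control 1 (3428). The causes were not tested. Same-numbered libraries correlated between -0.0861 and 0.164, over 0.1 in 2 of 6, with a mean of 0.0404 against -0.00879 for other pairs. Of the 12 libraries, 5 were most like their own number. Whether the numbers pair mice was not tested. With the replicate number as a block, 2 annexins were higher, as were 272 genes, with 40 lower. A filter at 1 FPKM gave no value for Anxa8. The unknown number of reads limits what can be said of genes near 0, Anxa8 above all.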
